A study of Rattus norvegicus with 18 samples.

Results

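The gene group described here is the NRF2 (Nfe2l2) antioxidant system of the heart muscle cell, given as 10 genes by name: the transcription factor Nfe2l2, its inhibitor Keap1, the detoxifying and redox enzymes Nqo1, Hmox1, Gclc, Gclm, Txnrd1 and Srxn1, and the mitochondrial and peroxisomal enzymes Sod2 and Cat. All 10 were found among the 17303 rows of the deposited expression table, and all 10 passed the filter on low values, as did 10478 rows in all. Messenger RNA was sequenced from ventricular myocytes of Wistar rats aged P3 (postnatal day 3) in 18 libraries, 3 per group. The groups were phenylephrine (PE) at 10 µM, an agonist of alpha1-adrenergic receptors used to drive hypertrophic growth; PE with the CDK8 kinase inhibitor Senexin A at 10 or 50 µM; Senexin A alone at 10 or 50 µM; and Vehicle. Every culture, Vehicle included, had first been kept with AraC, which kills dividing cells, for 48 h and without serum for 24 h; treatment then lasted 48 h, with the medium changed at 24 h.

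NRF2 is a transcription factor that is kept scarce by KEAP1, an adaptor that brings it to the CUL3 ubiquitin ligase. Oxidants and electrophiles modify cysteines of KEAP1, NRF2 then accumulates, pairs with a small MAF protein and binds antioxidant response elements near genes for glutathione synthesis, thioredoxin and peroxiredoxin recycling, quinone reduction and heme breakdown. In the heart, enzymes of the glutathione and thioredoxin systems, mitochondrial superoxide dismutase and catalase are among the means by which myocytes remove superoxide and peroxides. Much of the control of NRF2 acts on the protein, which was not measured here.

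Promoter sequences are given for 4 of the genes because they differ in their response: Txnrd1 and Srxn1 were much higher at 50 µM Senexin A, Gclm changed little, and Nqo1 was lower. The windows are the 250 bases before each start in RefSeq's GRCr8 assembly, printed 5′ to 3′ on the strand of the gene. They lie at chr7:22755905-22756154 on the minus strand for Txnrd1 (1 of its 2 listed windows), chr3:161064562-161064811 on the plus strand for Srxn1, chr2:213031885-213032134 on the plus strand for Gclm and chr19:52220268-52220517 on the minus strand for Nqo1. Capitals mark a match, read on the opposite strand, to the core of the antioxidant response element (TGACNNNGC) in Txnrd1 and Gclm and to the AP-1 site (TGACTCA) in Srxn1.
Txnrd1: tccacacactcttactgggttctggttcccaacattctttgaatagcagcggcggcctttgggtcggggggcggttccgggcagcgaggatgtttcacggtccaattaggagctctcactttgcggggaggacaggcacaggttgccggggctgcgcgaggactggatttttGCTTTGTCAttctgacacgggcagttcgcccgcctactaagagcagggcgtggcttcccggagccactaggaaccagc
Srxn1: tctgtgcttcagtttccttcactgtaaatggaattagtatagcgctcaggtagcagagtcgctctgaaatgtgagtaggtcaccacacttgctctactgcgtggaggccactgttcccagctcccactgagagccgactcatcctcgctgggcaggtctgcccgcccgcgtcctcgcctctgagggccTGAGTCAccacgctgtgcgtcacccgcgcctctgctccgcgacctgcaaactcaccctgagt
Gclm: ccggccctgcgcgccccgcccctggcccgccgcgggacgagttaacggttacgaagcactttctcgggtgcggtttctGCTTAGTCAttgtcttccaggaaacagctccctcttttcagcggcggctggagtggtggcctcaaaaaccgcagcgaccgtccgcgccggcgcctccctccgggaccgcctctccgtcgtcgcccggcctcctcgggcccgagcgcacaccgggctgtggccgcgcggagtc
Nqo1: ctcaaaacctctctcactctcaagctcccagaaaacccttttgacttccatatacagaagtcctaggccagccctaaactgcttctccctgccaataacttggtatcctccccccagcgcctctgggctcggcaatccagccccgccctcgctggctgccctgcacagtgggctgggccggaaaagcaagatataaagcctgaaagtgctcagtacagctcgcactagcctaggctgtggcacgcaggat
Windows were listed for 9 of the 10 genes, 10 windows in all with 2 for Txnrd1. On either strand, TGACNNNGC was present in 3 of these 10 windows and in 10.1% of all 33469 windows. Those 3 were windows of Txnrd1 (bases 78 to 70 before the start), Gclm (172 to 164) and Sod2 (35 to 27). The other Txnrd1 window, not printed here, held no match to TGACNNNGC. TGACTCA was present for Srxn1 (62 to 56 before the start) and in 4.05% of all windows. The C/EBP-ATF element TGATGNAA was present for none of the 9 and in 3.40% of all windows. These matches describe letters in a short window and do not place a factor there.

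In the rn5 build that the table uses, Nfe2l2 spans chr3:69041647-69069070, Nqo1 chr19:49291903-49306796, Hmox1 chr19:25622556-25629377, Txnrd1 chr7:27065819-27104095 and Srxn1 chr3:153957677-153963237. These are whole gene spans, exons and introns together. Txnrd1 was the only member whose span another row shared. That row, Eid3, held 0.0661 to 2.5 FPKM, against at least 65.3 FPKM for Txnrd1. Values are FPKM, fragment counts scaled by gene length and by the fragments mapped in that library, so levels of different genes can be set side by side. Averaged over the 18 libraries, Txnrd1 (182 FPKM), Cat (179 FPKM) and Sod2 (166 FPKM) were the most abundant of the 10 and Keap1 (19.5 FPKM) the least. Between the groups with the highest and lowest means, Txnrd1 spanned 5.43-fold, Hmox1 4.86-fold and Srxn1 4.20-fold, while Keap1 spanned 1.37-fold and Gclm 1.29-fold.

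FPKM sums ran from 610324 to 910958 per library, and depth relative to Vehicle replicate 2 from 0.829 to 1.11. The sums differed by group. Vehicle libraries (610324 to 660958) lay below those of every other group. Without PE the sums were 699695 to 746492 at 10 µM and 755249 to 826406 at 50 µM. They were 810428 to 853958 in PE, 839441 to 910958 with PE and 10 µM and 790067 to 897706 with PE and 50 µM. The 10 most abundant genes of the table took 19.2% to 20.7% of the sum in PE libraries and 9.64% to 12.4% in Vehicle libraries. Summed cardiomyocyte markers (12 genes) stood at 100622 to 119568 FPKM in PE, 82954 to 103222 FPKM with PE and 10 µM and 54170 to 68313 FPKM with PE and 50 µM, and at 38704 to 55271 FPKM in Vehicle, 57098 to 73647 FPKM at 10 µM and 40789 to 62882 FPKM at 50 µM. PE libraries thus lay above Vehicle and above PE with 50 µM with no overlap. Myl2 alone averaged 69505 FPKM in PE and 29979 FPKM in Vehicle, most of the sum there. With PE and 50 µM, 2 cardiomyocyte markers were called higher and 6 lower than with PE (median log2 difference -0.62). At 50 µM alone 4 were higher and 3 lower than in Vehicle (median -0.07). Of all tested rows, 56.7% were called with PE and 60.7% alone. The part of the shift in cardiomyocyte markers in the changes of the NRF2 genes was not tested. Of 5 erythroid markers, 4 were under 1 FPKM in every library. Markers of other cells were also present. In these bulk samples, fewer cells of a type and less RNA per cell cannot be told apart.

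**Figure D1:**
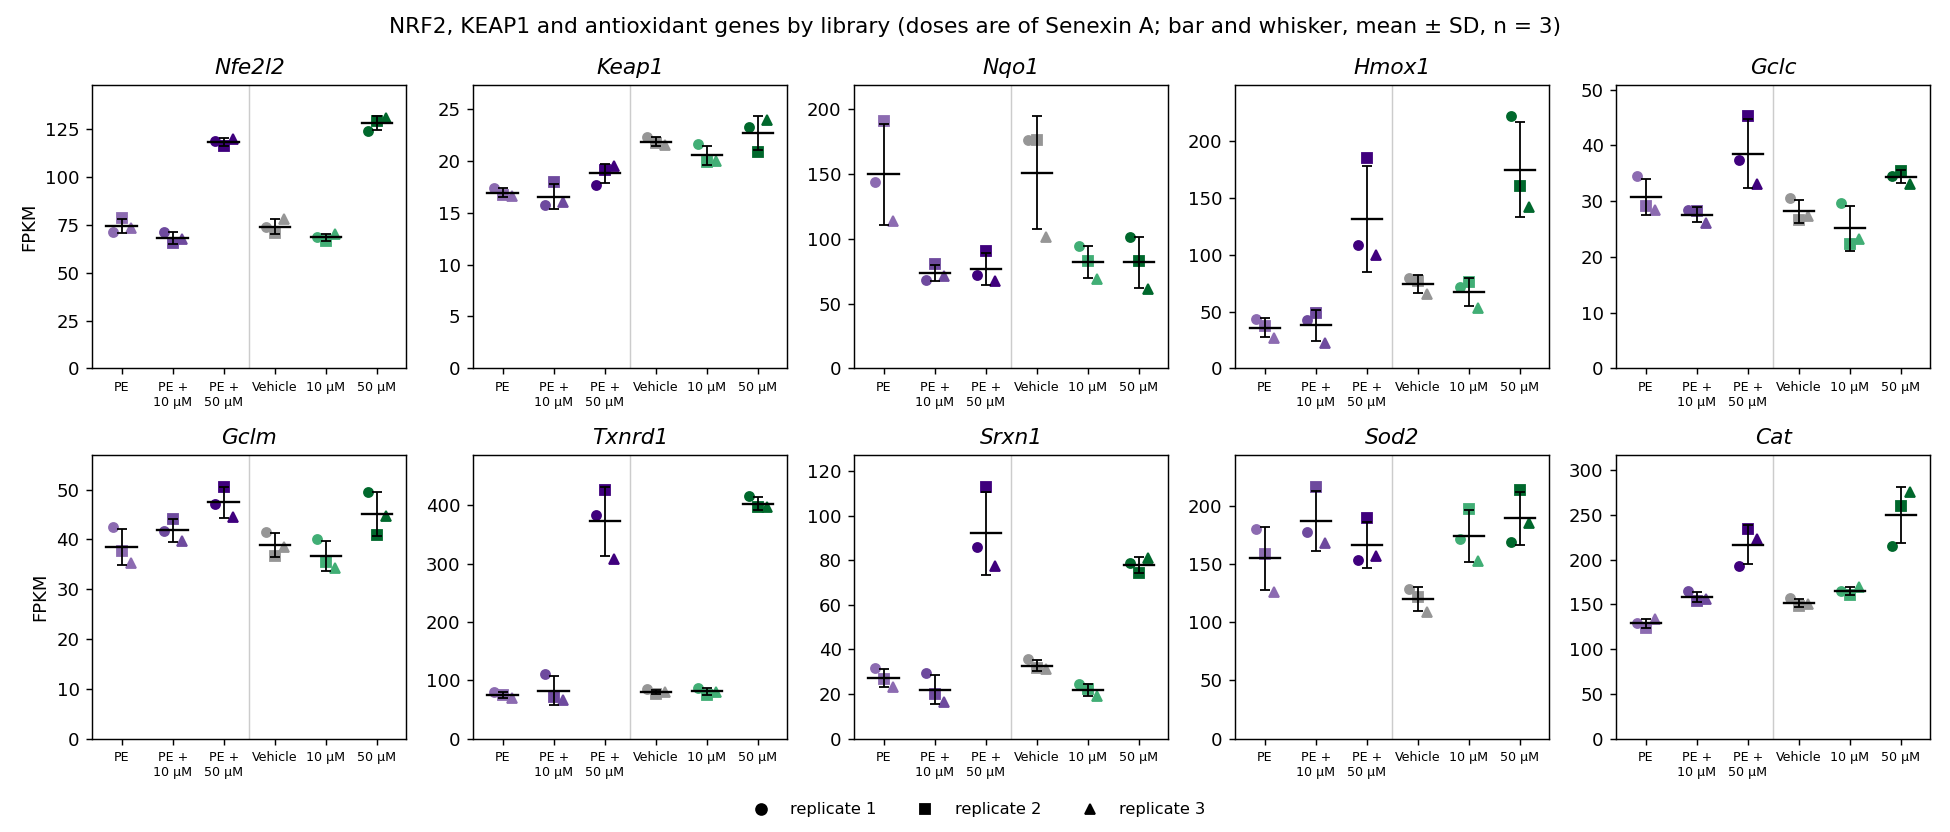
Level of each of the 10 genes (FPKM, linear axis from 0) in every library of the 6 groups; points are libraries, shaped by replicate number, and bars and whiskers are the mean ± SD of 3 libraries. Txnrd1, Srxn1, Hmox1, Nfe2l2 and Cat stand highest in both groups with 50 µM Senexin A, and Nqo1 stands lower at 10 µM and 50 µM, with PE and without.

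Senexin A at 50 µM gave the widest changes of these genes, both with PE and alone. Txnrd1 was about 5 times its level without inhibitor (4.94-fold with PE, 4.99-fold alone), Srxn1 and Hmox1 were 2.30-fold to 3.51-fold higher, and Nfe2l2 itself and Cat were 1.58-fold to 1.72-fold higher, whereas Nqo1 was lower (0.524-fold with PE, 0.551-fold alone). With PE and 50 µM, 7 of the 10 genes rose and 1 fell relative to PE, where 56.7% of all tested rows were called (29.3% higher and 27.4% lower). Alone, 50 µM also raised 7 and lowered 1 relative to Vehicle, where 60.7% of all rows were called (30.5% higher and 30.2% lower). The share of members called, 8 of 10, was thus not far above that of all rows, while the share called higher was larger. The median log2 difference of the 10 genes was 0.49 with PE and 0.68 alone, beside 0.00 and -0.01 over all tested rows. Quantile normalization gave 6 higher and 1 lower in both, beside 56.3% of all rows called with PE and 59.5% alone. The medians were then 0.40 with PE and 0.46 alone, beside 0.02 and 0.03 over all rows. Fold changes and log2 differences were taken after adding 1 FPKM to each value, so those of low genes are understated.

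Nfe2l2, which encodes NRF2, held 71.3, 78.3 and 73.5 FPKM in the PE libraries, 71.4, 65.4 and 67.8 FPKM with PE and 10 µM, and 119, 116 and 120.0 FPKM with PE and 50 µM. Without PE it held 73.9, 70.5 and 77.9 FPKM in Vehicle, 68.5, 66.7 and 70.3 FPKM at 10 µM, and 124, 129 and 131 FPKM at 50 µM. All 6 libraries with 50 µM lay above the other 12, and the other groups lay within 65.4 to 78.3 FPKM. The log2 difference was 0.66 ± 0.06 (SE) for PE with 50 µM against PE (adjusted p = 1.24e-07, limma) and 0.78 ± 0.06 for 50 µM alone against Vehicle (adjusted p = 1.87e-08). At 10 µM the differences were -0.12 with PE (adjusted p = 0.155) and -0.11 alone (adjusted p = 0.204).

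Keap1, the inhibitor of NRF2, did not pass the test at either dose. Its level was 17.7, 19.1 and 19.5 FPKM with PE and 50 µM, against 17.4, 16.7 and 16.6 FPKM with PE. Without PE it was 23.2, 20.8 and 23.9 FPKM at 50 µM, against 22.3, 21.7 and 21.5 FPKM in Vehicle. The groups with PE stood just apart and those without PE overlapped, with log2 differences of 0.14 (95% interval -0.01 to 0.29, adjusted p = 0.0933) and 0.04 (-0.11 to 0.19, adjusted p = 0.606).

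Txnrd1, the cytosolic thioredoxin reductase, a selenoenzyme that keeps thioredoxin reduced, had the largest change of the 10. It held 79.6, 74.1 and 68.8 FPKM in PE, 110.0, 71.2 and 65.3 FPKM with PE and 10 µM, and 384, 426 and 308 FPKM with PE and 50 µM. In cultures without PE it held 84.2, 76.6 and 79.3 FPKM in Vehicle, 86.9, 75.4 and 80.6 FPKM at 10 µM, and 416, 397 and 397 FPKM at 50 µM. Every library with 50 µM held at least 308 FPKM, and none of the other 12 held more than 110.0 FPKM, the value of replicate 1 with PE and 10 µM. The log2 difference at 50 µM was 2.30 ± 0.15 with PE (adjusted p = 7.56e-09) and 2.32 ± 0.15 alone (adjusted p = 5.41e-09). At 10 µM it was 0.11 with PE (adjusted p = 0.655) and 0.01 alone (95% interval -0.30 to 0.33, adjusted p = 0.962).

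Srxn1 encodes sulfiredoxin, which restores over-oxidised peroxiredoxins. It stood at 31.4, 26.8 and 23.1 FPKM in PE, 29.4, 20.0 and 16.5 FPKM with PE and 10 µM, and 85.8, 113 and 77.3 FPKM with PE and 50 µM. Without PE it stood at 35.8, 31.4 and 31.0 FPKM in Vehicle, 24.3, 22.4 and 19.0 FPKM at 10 µM, and 78.6, 74.0 and 80.8 FPKM at 50 µM. Its order was therefore not that of the dose: without PE the 10 µM libraries all lay below Vehicle and the 50 µM libraries all above it, and with PE the 10 µM and PE libraries overlapped. At 50 µM the log2 difference was 1.72 ± 0.17 with PE (adjusted p = 6.19e-07) and 1.22 ± 0.17 alone (adjusted p = 1.61e-05). At 10 µM alone Srxn1 fell by 0.56 on the log2 scale (SE 0.17, adjusted p = 0.0362), a call that ended without Vehicle replicate 1 (adjusted p = 0.115), 2 (0.0727) or 3 (0.0689) or without 10 µM replicate 2 (0.0819) or 3 (0.119). With PE the 10 µM difference was -0.32 (adjusted p = 0.224), and without PE with 10 µM replicate 1 it was -0.54 (adjusted p = 0.0364).

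Hmox1, heme oxygenase, which breaks heme down to biliverdin, carbon monoxide and iron, held 43.7, 37.6 and 26.7 FPKM in PE, 42.5, 48.8 and 22.7 FPKM with PE and 10 µM, and 109, 185 and 100 FPKM with PE and 50 µM. It held 79.9, 77.3 and 65.6 FPKM in Vehicle, 72.1, 76.0 and 52.9 FPKM at 10 µM, and 222, 160.5 and 142 FPKM at 50 µM. Both 50 µM groups lay above all other libraries, and replicate 3 was the lowest of its group in all 6 groups. The log2 difference at 50 µM was 1.81 ± 0.28 with PE (adjusted p = 3.92e-05) and 1.20 ± 0.28 alone (adjusted p = 0.0013). At 10 µM it was 0.03 with PE (95% interval -0.55 to 0.62, adjusted p = 0.949) and -0.16 alone (-0.74 to 0.43, adjusted p = 0.748).

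Gclc and Gclm, the catalytic and modifier subunits of glutamate-cysteine ligase, which makes the precursor of glutathione, differed by at most 1.24-fold at 50 µM. Gclc ranged from 33.0 to 45.2 FPKM with PE and 50 µM, against 28.5 to 34.5 FPKM with PE, and from 33.1 to 35.4 FPKM at 50 µM alone, against 26.6 to 30.5 FPKM in Vehicle. The PE groups overlapped and the groups without PE did not, and Gclc was called in both, at log2 differences of 0.31 ± 0.12 (adjusted p = 0.0305) and 0.28 ± 0.12 (adjusted p = 0.0459). The call with PE ended without replicate 2 (adjusted p = 0.0909) or 3 (0.11) of PE, without replicate 1 (0.0529) or 2 (0.173) of PE and 50 µM, and under quantile normalization (0.0695). The call without PE held in 14 of 28 alternatives, and ended for instance without Vehicle replicate 2 (adjusted p = 0.132) or 3 (0.109), without 50 µM replicate 1 (0.0882), 2 (0.11) or 3 (0.061), and under quantile normalization (0.115).
It also ended when libraries of other groups, which share the estimate of the spread, were left out, at adjusted p = 0.0525 without PE replicate 2, 0.0529, 0.0529 and 0.0511 without replicate 1, 2 or 3 of the PE and 10 µM group, and 0.0546 without replicate 1 of the PE and 50 µM group.
Gclm ranged from 44.5 to 50.6 FPKM with PE and 50 µM, against 35.2 to 42.4 FPKM with PE, with no overlap. Its log2 difference there was 0.30 ± 0.09 (adjusted p = 0.00924), lost without PE replicate 3 (adjusted p = 0.0514). At 50 µM alone it ranged from 40.9 to 49.6 FPKM, against 36.6 to 41.5 FPKM in Vehicle, and did not pass (0.21 ± 0.09, adjusted p = 0.0534); with the replicate block it did (adjusted p = 0.0182).

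Cat, catalase, the peroxisomal enzyme that splits hydrogen peroxide, stood at 129, 124 and 134 FPKM in PE, 165, 154 and 156 FPKM with PE and 10 µM, and 193, 235 and 223 FPKM with PE and 50 µM. Without PE it stood at 157, 148 and 150.1 FPKM in Vehicle, 165, 161 and 169.5 FPKM at 10 µM, and 215, 260.0 and 276 FPKM at 50 µM. With and without PE its libraries were ordered by dose with no overlap between the doses. The log2 difference at 50 µM was 0.74 ± 0.09 with PE (adjusted p = 2.44e-06) and 0.71 ± 0.09 alone (adjusted p = 2.93e-06). At 10 µM Cat rose with PE by 0.29 ± 0.09 on the log2 scale (adjusted p = 0.0295). That call ended when any 1 of the 6 libraries compared was left out, namely PE replicate 1 (adjusted p = 0.0646), 2 (0.102) or 3 (0.0544) or PE with 10 µM replicate 1 (0.107), 2 (0.0532) or 3 (0.0537), and under quantile normalization (0.0722). Alone, the 10 µM difference was 0.12 ± 0.09 (adjusted p = 0.357).

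Sod2, the manganese superoxide dismutase of mitochondria, was called at 50 µM alone but not with PE. With PE it held 180.4, 159 and 126 FPKM, with PE and 10 µM 178, 217 and 168 FPKM, and with PE and 50 µM 154, 189.8 and 157 FPKM. Without PE it held 129, 122 and 109 FPKM in Vehicle, 172, 198 and 153 FPKM at 10 µM, and 169, 214 and 186 FPKM at 50 µM. The 3 groups with PE overlapped one another, while both Senexin A groups without PE lay above Vehicle. Alone, Sod2 rose by 0.65 ± 0.14 on the log2 scale at 50 µM (adjusted p = 0.000759) and by 0.53 ± 0.14 at 10 µM (adjusted p = 0.0176), the second call ending without Vehicle replicate 3 (adjusted p = 0.0771) or 10 µM replicate 2 (0.0882). With PE the differences were 0.12 at 50 µM (95% interval -0.18 to 0.41, adjusted p = 0.495) and 0.28 at 10 µM (adjusted p = 0.182; 0.0407 with the replicate block). The difference between the 50 µM responses with and without PE was -0.53 ± 0.20 (95% interval -0.95 to -0.12) and did not pass (adjusted p = 0.118). It passed with the replicate block (adjusted p = 0.0158), with array weights (0.0443) and without PE replicate 3 (-0.67, adjusted p = 0.0432).

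Nqo1, a quinone reductase that is among the most used markers of NRF2 activity, moved the opposite way to Txnrd1 and Srxn1 at 50 µM, and was also lower at 10 µM. It held 144, 191 and 114 FPKM in PE, 68.1, 80.4 and 71.6 FPKM with PE and 10 µM, and 72.3, 90.4 and 67.4 FPKM with PE and 50 µM. Without PE it held 176, 176 and 101 FPKM in Vehicle, 94.3, 82.9 and 69.3 FPKM at 10 µM, and 101, 82.5 and 61.5 FPKM at 50 µM. All PE libraries lay above all libraries with PE and inhibitor. Vehicle replicate 3 (101 FPKM) was far below the other Vehicle libraries and level with the highest 50 µM library, so those groups overlapped. Its log2 differences were -0.99 ± 0.23 for PE with 10 µM against PE (adjusted p = 0.00737), -0.93 ± 0.23 for PE with 50 µM against PE (adjusted p = 0.00231) and -0.86 ± 0.23 for 50 µM alone against Vehicle (adjusted p = 0.00365), and these 3 calls held in all 28 alternatives. For 10 µM alone against Vehicle it was -0.84 ± 0.23 (adjusted p = 0.0198), a call that ended without Vehicle replicate 1 (adjusted p = 0.082) or 2 (0.0873) or without 10 µM replicate 2 (0.0551) or 3 (0.0703). Between 50 µM and 10 µM the difference was 0.06 with PE (95% interval -0.42 to 0.54, adjusted p = 0.868) and -0.03 without it (-0.50 to 0.45, adjusted p = 0.934).

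**Figure D2:**
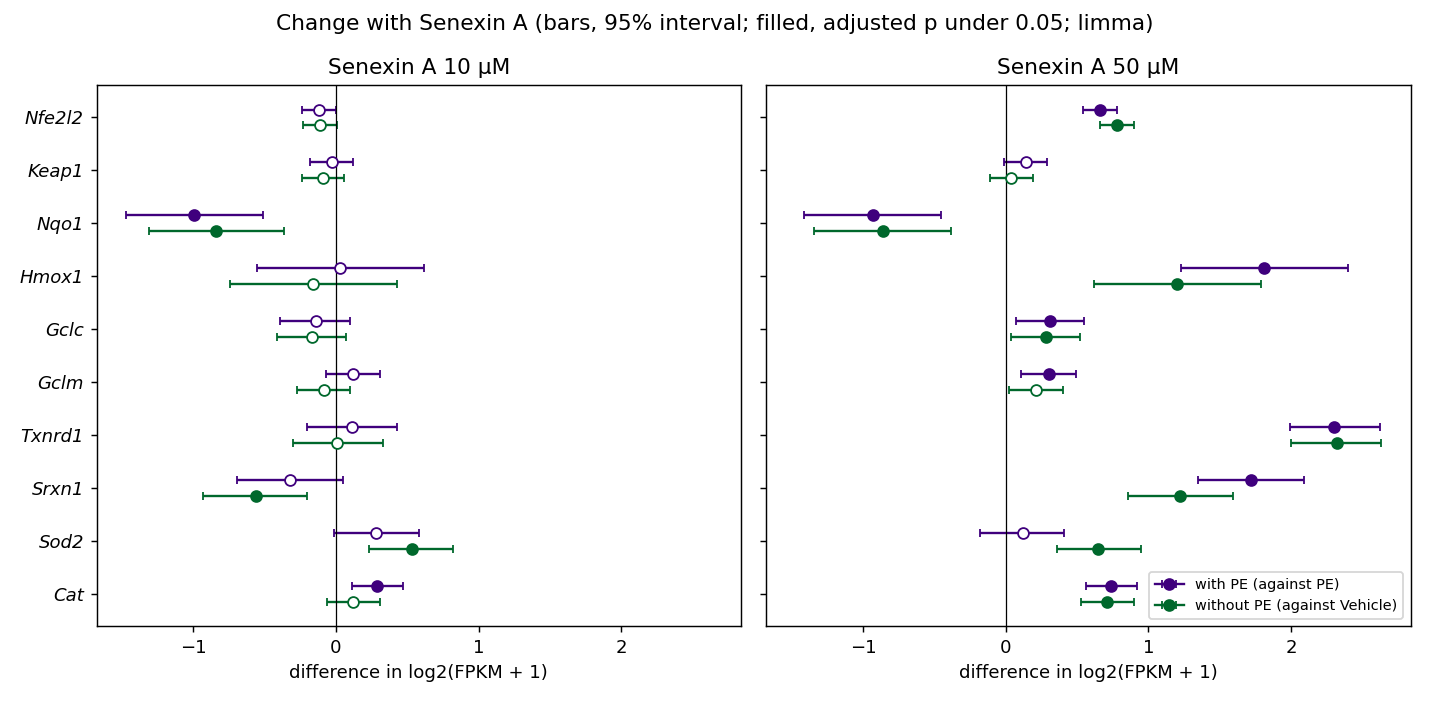
Difference in log2(FPKM + 1) with Senexin A at 10 µM (left) and 50 µM (right) for each of the 10 genes, against PE for cultures with PE and against Vehicle for those without; whiskers are 95% intervals and filled points have an adjusted p under 0.05 (limma). At 50 µM the points of Txnrd1 lie at 2.30 and 2.32, while those of Nqo1 lie near -0.9 at both doses.

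At 10 µM fewer of the 10 genes were called than at 50 µM, as were fewer of all rows. With PE, 1 gene rose (Cat) and 1 fell (Nqo1) relative to PE, beside 17.0% of all rows called (9.13% higher and 7.84% lower), and the median difference was 0.00 (0.01 over all rows). Alone, 1 rose (Sod2) and 2 fell (Nqo1 and Srxn1) relative to Vehicle, beside 16.2% of all rows called (9.17% higher and 7.01% lower), and the median was -0.10 (-0.01 over all rows). Quantile normalization left 0 higher and 1 lower with PE, which changes that split. Comparing the doses directly, 50 µM stood above 10 µM in 6 genes with PE and in 7 without it, and below in none, beside 41.2% of all rows called with PE (21.3% higher and 19.9% lower) and 50.4% without it (25.4% higher and 24.9% lower). Those called in both were Nfe2l2, Hmox1, Gclc, Txnrd1, Srxn1 and Cat. Gclm was called without PE (0.29 log2, adjusted p = 0.0123), a call lost without 10 µM replicate 3 (0.0565), without 50 µM replicate 1 (0.0626) and under quantile normalization (0.0693). With PE the Gclm value was 0.18 and did not pass (adjusted p = 0.121; 0.0493 with the replicate block), and whether the dose difference of Gclm itself differed by PE was not tested.

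For PE itself, the share of these genes called was not above that of all rows. Relative to Vehicle, 0 rose and 2 fell, beside 30.6% of all rows called (17.9% higher and 12.7% lower), and the median difference was -0.06 (-0.01 over all rows). At an unadjusted p under 0.05, 4 of the 10 differed. The share of all rows at that looser threshold was not counted and cannot be below 30.6%. Hmox1 was lower in every PE library (26.7 to 43.7 FPKM) than in any Vehicle library (65.6 to 79.9 FPKM), and fell by 1.05 on the log2 scale (SE 0.28, adjusted p = 0.00928). Keap1 held 17.4, 16.7 and 16.6 FPKM in PE, against 22.3, 21.7 and 21.5 FPKM in Vehicle, and fell by 0.35 (SE 0.07, adjusted p = 0.00152). The replicates of each group lay within 1 FPKM of each other for Keap1, and both calls held in all 28 alternatives. With the replicate block 1 rose and 3 fell, beside 42.2% of all rows called. Array weights likewise gave 1 higher and 3 lower. Quantile normalization gave 0 higher and 3 lower, beside 31.8% of all rows called, at a median of -0.24 (-0.04 over all rows).

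Nfe2l2 averaged 74.3 ± 3.57 FPKM in PE and 74.1 ± 3.71 FPKM in Vehicle (SD, n = 3 each), a log2 difference of 0.00 (95% interval -0.12 to 0.13). Txnrd1, Gclm, Gclc and Nqo1 differed between PE and Vehicle by -0.11, -0.02, 0.12 and -0.00 log2 units, with adjusted p of at least 0.471. The interval of Nqo1 ran from -0.48 to 0.48, so changes up to that size are left undetermined. Srxn1 differed by -0.27 (adjusted p = 0.25). Cat lay lower in every PE library (124 to 134 FPKM) than in Vehicle (148 to 157 FPKM), and its difference of -0.23 ± 0.09 did not pass (adjusted p = 0.0524). It passed under quantile normalization (-0.43, adjusted p = 0.00108), with median-ratio scaling (0.0372), when PE and Vehicle were fitted by themselves (0.0184), with the replicate block (0.0306), with array weights (0.0193) and without 1 of 4 libraries of other groups, PE with 50 µM replicate 1 (0.0377) or 2 (0.0435) or 50 µM replicate 1 (0.019) or 3 (0.0398). Sod2 overlapped between PE and Vehicle, at a difference of 0.35 ± 0.14 (adjusted p = 0.0654; 0.00891 with the replicate block and 0.0168 without PE replicate 3).

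Whether PE altered the response to the inhibitor was tested as an interaction, the change with PE minus the change without it. With limma, 0 of the 10 genes passed at 10 µM, beside 0.305% of all rows called (0.0668% higher and 0.239% lower), and 0 passed at 50 µM, beside 7.01% of all rows (2.24% higher and 4.76% lower). At an unadjusted p under 0.05 there were 0 and 1 (Sod2), and the shares of all rows at that looser threshold were not counted. The 50 µM estimates were 0.61 for Hmox1 (95% interval -0.22 to 1.43, adjusted p = 0.393), 0.49 for Srxn1 (-0.02 to 1.01, adjusted p = 0.252), -0.12 for Nfe2l2 (adjusted p = 0.419), -0.07 for Nqo1 (adjusted p = 0.928) and -0.02 for Txnrd1 (adjusted p = 0.978). These intervals leave room for differences of over 1 log2 unit in Hmox1.

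The partners that control NRF2 changed in both directions. At 50 µM alone 5 of 10 tested rose and 4 fell relative to Vehicle (4 and 5 under quantile normalization), and with PE 4 rose and 3 fell relative to PE, beside 60.7% and 56.7% of all rows called. In either direction, 9 of the 10 partners were called alone and 7 of the 10 with PE, both above the share of all rows. Whether either was an excess was not tested. The medians were -0.04 and -0.09, beside -0.01 and 0.00 over all rows. Sqstm1, the autophagy receptor p62 that can hold KEAP1 away from NRF2, averaged 627 ± 97.0 FPKM with PE and 50 µM and 232 ± 24.9 FPKM with PE (log2 difference 1.42, adjusted p = 6.04e-07). Alone, it averaged 733 ± 60.5 FPKM at 50 µM and 269.6 ± 23.9 FPKM in Vehicle (1.44, adjusted p = 4.25e-07). Bach1, a repressor that competes with NRF2 for its sites and holds Hmox1 down, was higher too, by 1.07 with PE (adjusted p = 2.07e-06) and by 1.00 alone (adjusted p = 3.63e-06).

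The small MAF genes, whose products pair with NRF2 or with BACH1, did not move together. Mafg rose at 50 µM by 1.10 with PE (50.9 ± 4.74 FPKM, against 23.2 ± 0.898 FPKM in PE, adjusted p = 1.67e-06) and by 0.99 alone (adjusted p = 4.21e-06). Mafk averaged 89.1 ± 7.18 FPKM in PE and 44.2 ± 2.66 FPKM in Vehicle and rose with PE by 1.00 (adjusted p = 1.93e-06). Relative to PE it fell by 0.94 with PE and 10 µM (adjusted p = 3.00e-05) and by 1.03 with PE and 50 µM (adjusted p = 2.63e-07), to 46.0 ± 4.99 and 43.2 ± 1.07 FPKM. Mafk was the 1 partner called in the 50 µM interaction (-0.54, limma adjusted p = 0.0243), beside 7.01% of all rows. The number of partners called there ran from 0 to 2 over omissions of single libraries. Maff fell at 50 µM alone by 0.94 (adjusted p = 2.54e-05) and at 10 µM alone by 0.99 (adjusted p = 0.000266) relative to Vehicle. At 10 µM the 2 partners called of 10 tested, with PE and without, were Mafk and Maff, both lower. Of all rows, 17.0% were called with PE and 16.2% without. With PE against Vehicle, Mafk was the only partner called higher and Trim21, a ubiquitin ligase that binds p62, the only one lower (-0.41, adjusted p = 0.0398). Of all rows, 30.6% were called for PE. The number of partners called for PE was 1 without Vehicle replicate 1 or 2 or PE replicate 1 or 3, and 4 without 50 µM replicate 1.

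Of 27 other NRF2 target genes tested, 20 rose and 3 fell at 50 µM alone relative to Vehicle, and 17 rose and 4 fell with PE and 50 µM relative to PE. Of all tested rows, 60.7% were called alone (30.5% higher) and 56.7% with PE (29.3% higher). The medians of the list were 0.57 alone and 0.47 with PE. Sesn2, sestrin 2, a stress-induced regulator of mTORC1 signalling, averaged 94.4 ± 5.14 FPKM with PE and 50 µM and 20.5 ± 2.71 FPKM with PE (2.15, adjusted p = 1.93e-07), and 122 ± 21.9 FPKM at 50 µM alone and 26.2 ± 6.0 FPKM in Vehicle (2.18, adjusted p = 1.37e-07). Abcc4, an efflux transporter, rose by 1.44 with PE (adjusted p = 1.66e-07) and 1.72 alone (adjusted p = 2.32e-08). Fth1, the ferritin heavy chain that stores iron, averaged 4825 ± 553 FPKM at 50 µM alone and 1931 ± 35.9 FPKM in Vehicle (1.31, adjusted p = 1.71e-07).
With PE, Akr1b8, an aldo-keto reductase, rose by 1.78 (adjusted p = 1.27e-05) and Slc7a11, the cystine carrier that feeds glutathione synthesis, by 1.60 (5.82 ± 0.617 FPKM, against 1.24 ± 0.181 FPKM in PE, adjusted p = 2.15e-07). Taldo1, transaldolase of the pentose phosphate pathway, rose by 1.26 at 50 µM alone (adjusted p = 3.23e-09). In the 50 µM interaction (limma), Fth1 (-0.69, adjusted p = 0.022) and Me1 (-0.69, adjusted p = 0.0238) were called lower and 0 higher, beside 7.01% of all rows. The number called there ran from 0 to 3 over omissions of single libraries.

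In PE cultures relative to Vehicle, 4 of these 27 genes rose and 7 fell (1 and 7 under quantile normalization), with a median of -0.03, beside 30.6% of all rows called. Those with the largest differences were Cbr1, a carbonyl reductase (-0.81, adjusted p = 0.0116), Slc7a11 (-0.69, adjusted p = 0.00226), Ephx1, an epoxide hydrolase (-0.64, adjusted p = 0.000538), and Blvrb, biliverdin reductase B (0.59, adjusted p = 0.0248). The number called ran from 6 to 12 when single libraries were left out, and was 6 without Vehicle replicate 2, 6 without Vehicle replicate 3 and 7 without PE replicate 3.
At 10 µM 3 rose and 1 fell with PE, and 2 rose and 3 fell alone, with Osgin1, an oxidative stress-induced growth inhibitor, lower in both (-0.63, adjusted p = 0.0152, and -0.87, adjusted p = 0.0021). The shares of all rows called at 10 µM were 17.0% with PE and 16.2% alone, or 27.9% and 26.4% with the replicate block. Counts at 10 µM depended on the fit: the replicate block gave 5 higher and 5 lower with PE and 4 higher and 5 lower alone, quantile normalization gave 2 and 2, and 0 and 6, and the number called was 2 with PE without PE replicate 1. Alone it was 1 without Vehicle replicate 1, 2 without Vehicle replicate 2 or 10 µM replicate 2, and 3 without Vehicle replicate 3 or 10 µM replicate 1.

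Other antioxidant enzymes, 26 tested, divided at 50 µM. Alone, 14 rose and 7 fell relative to Vehicle (median 0.34), and with PE 9 rose and 9 fell relative to PE (median -0.07; 6 and 8 under quantile normalization), beside the same 60.7% and 56.7% of all rows called. Prdx5, a peroxiredoxin of mitochondria and peroxisomes, averaged 408 ± 73.1 FPKM with PE and 50 µM and 209.9 ± 21.1 FPKM with PE (0.95, adjusted p = 2.18e-05), and 485 ± 33.6 FPKM at 50 µM alone and 182 ± 9.31 FPKM in Vehicle (1.41, adjusted p = 2.97e-07). Gpx7 and Gpx8, glutathione peroxidases of the endoplasmic reticulum, fell at 50 µM, by 1.12 (adjusted p = 7.08e-06) and 0.84 (adjusted p = 0.00124) with PE and by 1.11 (adjusted p = 6.53e-06) and 1.18 (adjusted p = 5.04e-05) alone. Txnrd3, a thioredoxin and glutathione reductase, rose by 0.63 with PE (adjusted p = 9.77e-06) and 0.99 alone (adjusted p = 7.59e-08). In the 50 µM interaction (limma), 5 of the 26 were called lower and 0 higher, beside 7.01% of all rows (4.76% lower). The largest were Gpx1 (-0.80, adjusted p = 0.047), Aifm1 (-0.76, 0.0195), Prdx3 (-0.66, 0.0164) and Msrb1 (-0.61, 0.0362). The number called ran from 1 to 7 over omissions of single libraries. In the 10 µM interaction only Glrx was called (0.79, adjusted p = 0.0476), beside 0.305% of all rows.

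With PE alone, 8 of these enzymes rose and 1 fell relative to Vehicle (7 and 4 under quantile normalization, 12 and 2 with the replicate block), at a median of 0.19. That share called is near the 30.6% of all rows called for PE, made up of 17.9% higher and 12.7% lower. With the replicate block 42.2% of all rows were called. Gpx1, the abundant cytosolic glutathione peroxidase, averaged 1185 ± 179.8 FPKM in PE and 596 ± 80.8 FPKM in Vehicle (0.99, adjusted p = 0.000321). Sod3, the extracellular superoxide dismutase, rose by 0.89 (adjusted p = 0.00676), Aifm1, a flavoprotein of the mitochondrial intermembrane space, by 0.80 (adjusted p = 0.000244) and Msrb1, a methionine sulfoxide reductase, by 0.50 (adjusted p = 0.00428).
With PE and 10 µM, 4 rose, among them Glrx, glutaredoxin (0.58, adjusted p = 0.00254), and 3 fell, among them Gpx7 (-0.57, adjusted p = 0.0125). At 10 µM alone only Gpx7 was called (-0.50, adjusted p = 0.0277). Quantile normalization gave 4 higher and 5 lower with PE, and 1 and 5 alone. With the replicate block 7 rose and 4 fell with PE, and 10 rose and 3 fell alone. Of all rows, 17.0% were called with PE and 16.2% alone, and the block raised these shares to 27.9% and 26.4%. The number called with PE was 3 without PE replicate 2, and 2 without PE replicate 3 or replicate 1 or 2 of PE and 10 µM. Alone it ran from 0 to 3 over omissions of single libraries, and was 0 without Vehicle replicate 3 or 10 µM replicate 1 or 2.

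**Figure D3:**
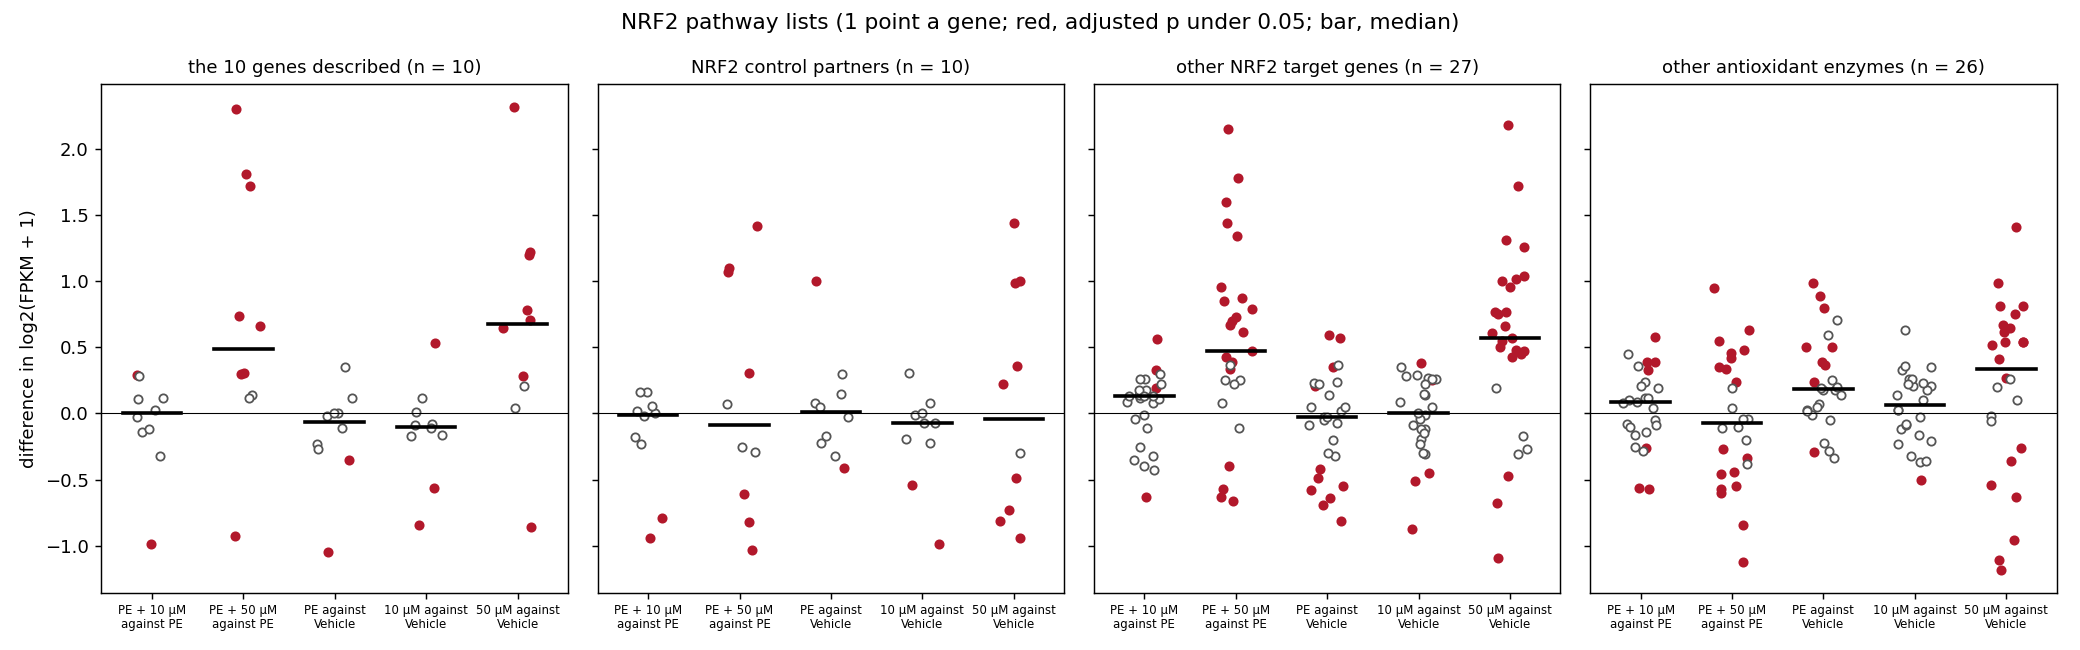
Difference in log2(FPKM + 1) of each tested gene in 4 lists (1 panel each) for 5 comparisons, with the median as a bar and genes with an adjusted p under 0.05 (limma) in red; the sideways spread of points carries no value. At 50 µM the medians of the other NRF2 target genes lie at 0.47 with PE and 0.57 alone, and those of the control partners near 0.

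The genes whose levels over the 18 libraries were most like those of a member were found by Pearson correlation of log2(FPKM + 1), as a description of libraries that share groups and replicate numbers. For Srxn1 they were Sqstm1 (r = 0.969), Mfsd5 (0.967) and Ncl (0.959). For Hmox1 they were Ftl1, the ferritin light chain (0.967), Ccdc17 (0.963) and Vamp1 (0.961). For Cat they were Zcchc2 (0.961), Lamtor3 (0.960) and RGD1306001 (0.954). Nqo1 was less closely matched by any gene, with Fuca1 (0.878), Rnh1 (0.869) and Arpc1b (0.860) the nearest.

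Macrophages and fibroblasts also express NRF2 and its targets, so their markers are given here. Summed macrophage markers (10 genes) ran over 21.8 to 242 FPKM with PE and 50 µM, 28.7 to 248 FPKM with PE and 10 µM and 20.0 to 89.9 FPKM with PE, and over 31.8 to 182 FPKM at 50 µM, 77.3 to 398 FPKM at 10 µM and 39.2 to 120.3 FPKM in Vehicle. Of the 10 markers, Adgre1, Cd163 and C1qb were under 1 FPKM in all 18 libraries, and the others were detected. In Vehicle, Cd68 averaged 7.92 FPKM, Aif1 2.11 FPKM, Cd14 2.05 FPKM, Csf1r 1.39 FPKM, C1qa 1.28 FPKM and Ptprc 1.12 FPKM. Lyz2 alone averaged 64.9 FPKM in Vehicle and 164 FPKM at 10 µM, most of the sum there. The sum was highest in replicate 2 and lowest in replicate 3 of every group. Hmox1 was also lowest in replicate 3 of every group, and Nqo1 in every group but PE with 10 µM. The fibroblast sum was highest in replicate 3 of every group. For Hmox1, the 50 µM and uninhibited groups did not overlap. Of 7 tested macrophage markers, 1 was called at 50 µM alone, lower, and none with PE and 50 µM, where 2 were higher with the replicate block. Of all rows, 60.7% were called alone and 56.7% with PE, or 64.0% with PE and the block.

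Summed fibroblast markers (11 genes) ran over 643 to 1247 FPKM with PE and 50 µM and 1272 to 2008 FPKM with PE, and over 1005 to 1354 FPKM at 50 µM alone and 1873 to 3146 FPKM in Vehicle. With 10 µM they ran over 899 to 1796 FPKM with PE and 1721 to 3271 FPKM alone. Fibroblast sums were thus lower at 50 µM with no overlap, with 4 of 10 tested markers lower with PE and 5 of 10 lower alone, and none higher, beside 56.7% of all rows called with PE (27.4% lower) and 60.7% alone (30.2% lower). Col1a2 was under 1 FPKM in every library. Col1a1 and Col3a1 averaged 955 and 930.3 FPKM in Vehicle, most of the sum there. Dcn, Lum, Pdgfra, Tcf21 and Postn were not called at 50 µM alone. Smooth muscle markers (6 genes) were also lower at 50 µM. They stood at 1828 to 1999 FPKM with PE and 50 µM and 3814 to 5738 FPKM with PE. Without PE they stood at 1814 to 2840 FPKM at 50 µM and 4533 to 6132 FPKM in Vehicle. Endothelial markers summed to 2.85 to 10.2 FPKM in all libraries. The part of these cell markers in the changes of the NRF2 genes was not tested.

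**Figure D4:**
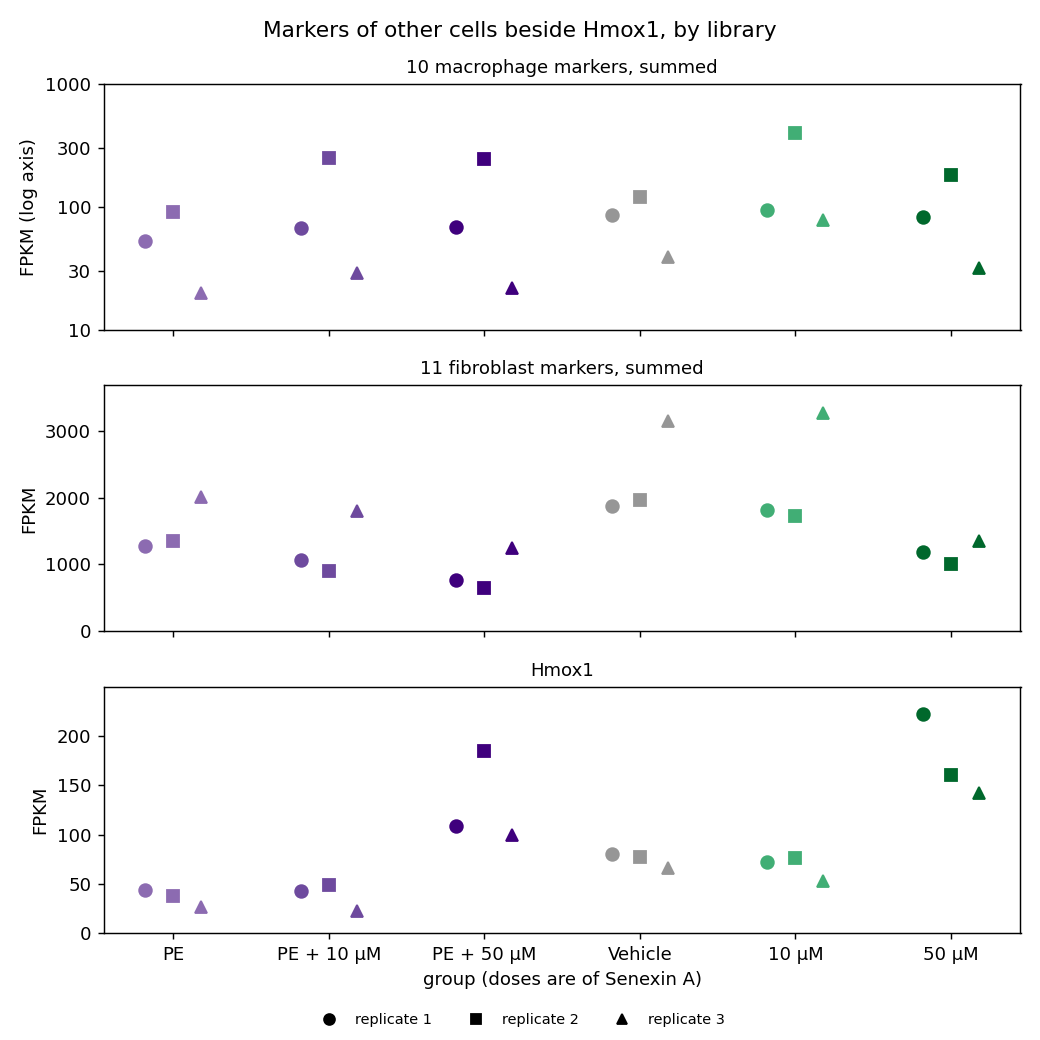
Summed FPKM of 10 macrophage markers (top, log axis) and 11 fibroblast markers (middle, linear axis) beside the FPKM of Hmox1 (bottom, linear axis), by library, with shapes for replicate number. Macrophage sums are highest in replicate 2 and lowest in replicate 3 of every group, and fibroblast sums are highest in replicate 3. In both 50 µM groups, fibroblast sums are lower and Hmox1 is higher than in the matching group without inhibitor. In Vehicle, Lyz2 makes up most of the macrophage sum, and Col1a1 with Col3a1 most of the fibroblast sum.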

How the data were processed

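Messenger RNA was measured in 18 libraries in 6 groups of 3, with groups and replicate numbers taken from the labels. The deposited table holds 1 FPKM column per library, with a floor of 0.01 FPKM. Per the submitters' processing notes, reads were processed with Bowtie2 and Cufflinks on rn5. Their versions, the annotation and any strand assignment are not given in the sources used here. Gene starts in the table were read as counted from 0 and are given counted from 1. The table gives no read totals, so absolute depth is unknown, no counting interval was computed, and only relative depth was read from the steps of low values.

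After a pseudocount of 1 FPKM and log2 transformation, limma 3.58.1 (variance trend, R 4.3.3) was run on the 10478 rows that reached 1 FPKM in 3 or more libraries. All 6 groups entered 1 model with 12 residual degrees of freedom, and 9 comparisons were each adjusted over all rows by the Benjamini-Hochberg method, with calls at an adjusted p under 0.05. The median standard error was 0.118, and 0.167 for interactions. The test was checked on simulated data. Nothing in the labels says that replicates came from separate cultures or animals. The p-values therefore reflect variation among these libraries, part of which may be technical.

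The 10 genes and all lists were chosen with earlier results of these data known. Named were all 10 genes and, per list and comparison described, up to 4 called genes with the largest absolute log2 difference, and the 3 genes most alike for Nqo1, Hmox1, Srxn1 and Cat. Lists hold 13 control partners, 29 other target genes and 29 other enzymes as listed.

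Libraries with the same replicate number deviated together from their group means (r from 0.2132 to 0.5872 over 45 pairs), and those with different numbers did not (r from -0.4620 to 0.09486 over 90 pairs), so the numbers pair the libraries. What the number stands for is not in the labels, and the planned fit had no block. Alternatives were other pseudocounts, no filter or 5 FPKM, quantile or median-ratio scaling, array weights, no trend, the replicate block, the compared groups only, and omission of each library, 28 in all. Promoter windows came from RefSeq (GRCr8). Descriptions used Python 3.11.15 with pandas 2.3.3 and numpy 2.4.6, and plots used matplotlib 3.10.9.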

Additional observations from a re-analysis of the deposited data

How the results depend on the processing

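Over the 28 alternatives, no called direction of the 10 genes reversed. Of 90 results for single genes, 74 kept their side of the threshold in all 28. With the replicate block, 4 of the 10 genes were called for PE against Vehicle (2 without it) and 1 for the 50 µM interaction (0 without it). The share of all rows called rose too, from 30.6% to 42.2% for PE and from 7.01% to 16.1% for that interaction. Array weights likewise gave 4 and 1, and quantile normalization gave 1 for PE with 10 µM against PE (2 in the planned fit). The genes that the block added for PE and the interaction included Sod2, at adjusted p = 0.00891 and 0.0158. When each library was left out in turn, the number called ran from 2 to 3 for PE, from 0 to 3 for 10 µM alone, from 7 to 9 for 50 µM alone, from 1 to 2 for PE with 10 µM, from 6 to 8 for PE with 50 µM, from 6 to 7 for 50 µM against 10 µM with PE and without, from 0 to 0 for the 10 µM interaction and from 0 to 1 for the 50 µM interaction. Why these counts moved was not tested. With 3 libraries a group and absolute depth unknown, the interactions are the least precise values, and a gene that missed the threshold is not shown to be equal between groups.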
